A study of Danio rerio with 19 samples.

Results

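The 7 brain-enriched miRNA families considered here are miR-9, miR-124, miR-128, miR-137, miR-138, miR-153 and miR-219. Their probes were taken by name from a two-color miRNA array of the zebrafish, with both arms of each hairpin. The array held 48 such probes among 546 probes of known miRNAs. Probes of identical sequence were averaged, which left 26 distinct miRNA sequences of 411. The probes were picked by name, and the families were known from earlier results of these data.

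Each of the 19 arrays compared RNA of fish carrying oncogenic HRAS (Hy3, green) with RNA of AB wild-type controls (Hy5, red), and a ratio above 0 on the log2 scale means more signal from HRAS fish. In kita:HRAS fish, Gal4 under the kita promoter drives a UAS transgene of eGFP fused to HRAS, and the study describes GFP in transformed melanocytes and notochord. These larvae were compared at 3 dpf (days post fertilization, 4 arrays), 7 dpf (3 arrays) and 14 dpf (3 arrays). In zic:HRAS larvae the same UAS transgene is driven by Gal4 from the zic4 line, with GFP in brain cells (3 dpf, 3 arrays). The hsp70:HRAS larvae carry a heat-inducible eGFP-HRAS that is on in the whole embryo (3 dpf, 3 arrays). They and their wild-type controls were kept at 37 °C for 30 min and sampled 6 h later. A larval sample was a pool of 15 whole larvae, or 5 at 14 dpf, with other parents for each replicate. Adult samples were individual tail fins with tumor from kita:HRAS fish against individual wild-type tail fins (3 arrays). Ages of the adult fish are not given in the sources used here. Brain tissue was nowhere dissected, so in these samples fewer cells of a type and less miRNA per cell cannot be told apart.

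MicroRNAs are cut from hairpin precursors, and each hairpin has a left (5′) and a right (3′) arm. Usually one arm is loaded into the silencing complex and the other is mostly degraded. The loaded strand pairs with target mRNAs through its seed, bases 2 to 8, and lowers their translation and stability. The families listed above are classical neural miRNAs of vertebrates. Of these, miR-124 is the typical miRNA of differentiated neurons and represses non-neuronal transcripts, while miR-9 acts in neural progenitors and in the timing of neurogenesis. In mammals miR-128 and miR-137 act in neuronal excitability and maturation, and miR-138 limits dendritic spine growth in rat neurons. In zebrafish miR-153 restrains synaptic vesicle release, and miR-219 promotes the maturation of oligodendrocytes, the myelinating cells of the brain. For brevity, the arm known as the main product is called the main arm here (left for miR-9, miR-138 and miR-219, right for the rest). There were 9 main-arm sequences and 17 sequences of the other arm.

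The mature sequences below were read as the reverse complement of the first 22 bases of each probe, with the seed in capitals. The main arms come first, since they are the strands expected to act in brain cells. The 3 right-arm sequences of miR-153 shared a seed, and the other main arms each had their own.
miR-9 left: uCUUUGGUuaucuagcuguaug
miR-124 right: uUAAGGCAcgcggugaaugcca
miR-128 right: uCACAGUGaaccggucucuuuu
miR-137 right: uUAUUGCUuaagaauacgcgua
miR-138 left: aGCUGGUGuugugaaucaggcc
miR-153a right: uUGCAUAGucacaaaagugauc
miR-153b right: uUGCAUAGucacaaaaaugagc
miR-153c right: uUGCAUAGucacaaaaaugauc
miR-219 left: uGAUUGUCcaaacgcaauucuu

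The other-arm sequences that follow are those with a called change at 14 dpf. The 4 left-arm sequences of miR-124 shared a seed. Counted from the 5′ end of the mature sequence, miR-124-1 left differed from miR-124 left by C12U, miR-124-4 left by C1U and C12U, and miR-124-6 left by A10G. Whether each of these probes read only its own sequence was not tested.
miR-124 left: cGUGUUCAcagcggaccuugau
miR-124-1 left: cGUGUUCAcaguggaccuugau
miR-124-4 left: uGUGUUCAcaguggaccuugau
miR-124-6 left: cGUGUUCAcggcggaccuugau
miR-9 right: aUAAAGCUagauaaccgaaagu
miR-9-4 right: uAAAGCUAgagaaccgaaugua
miR-138 right (zfmir522): gCUUCUUCacaacaccaggguc
miR-153a left: gUCAUUUUugugauguugcagc
miR-153c left: gUCAUUUUugugauuugcagcu
miR-219-1/miR-219-2 right: aGAAUUGUgccuggacaucugu

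The arrays lay on 3 slides, and the slides differed in brightness. Slide 1 held kita:HRAS replicates 1 and 2 of 3 dpf with all arrays of 7 and 14 dpf, slide 2 held replicates 3 and 4 of 3 dpf with adult melanoma, and slide 3 held zic:HRAS and hsp70:HRAS. Among the spots for brain-enriched miRNAs, between 92.7% and 100% were well above background in the HRAS channel on slide 1, between 42.7% and 88.5% on slide 2 and 100% on slide 3. The third adult array was the lowest. The precision of each mean is limited by its 3 or 4 arrays. For larval ratios the SEs, intervals and p-values also depend on a spread shared over all larval groups. A sequence was called when limma's Benjamini-Hochberg adjusted p, taken over every known sequence tested, fell under 0.01 with a linear fold change over 1.2.

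Oncogenic HRAS in brain cells left no called change in any of the 26 brain-enriched sequences at 3 dpf. In zic:HRAS larvae 0 of 26 were called, where 1.24% of all known sequences tested were (4 of 322 with limma). An unadjusted limma p below 0.05 was found in 2 of the 26 and in 60 of all 322. In kita:HRAS larvae at 3 dpf 0 of 23 tested were called, against 1.1% of all. Here 7 of the 23 and 93 of all 273 had an unadjusted limma p below 0.05. The median log2 ratio of the brain-enriched sequences was 0.01 in zic:HRAS and -0.07 in kita:HRAS, and over all sequences tested it was 0.03 and -0.08.

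For miR-124 right, the neuronal miRNA, the log2 ratios in zic:HRAS were 0.15, 0.19 and 0.26. In kita:HRAS at 3 dpf they were 0.16, 0.04, -0.15 and -0.02. These groups overlap, with the lowest zic:HRAS array just below the highest kita:HRAS array. The zic:HRAS mean was 0.20 (SE 0.06, 95% interval 0.07 to 0.33, n = 3, limma adjusted p = 0.0735). It exceeded the kita:HRAS mean by 0.20 (95% interval 0.03 to 0.37, limma adjusted p = 0.209).

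For miR-9 left, the progenitor-linked arm, the log2 ratios in zic:HRAS were -0.08, -0.28 and -0.24. In kita:HRAS they were -0.16, -0.15, 0.02 and -0.27. The arrays of the groups interleave. The zic:HRAS mean was -0.20 (SE 0.06, 95% interval -0.34 to -0.06, limma adjusted p = 0.103). The difference between models was -0.06 (95% interval -0.24 to 0.13).

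Across all 9 main arms the zic:HRAS means lay between -0.20 and 0.20 on the log2 scale. The oligodendrocyte miRNA miR-219 left had a zic:HRAS ratio of 0.06 with a 95% interval of -0.30 to 0.42, and its arrays fell on both sides of 0 (0.31, 0.24 and -0.37). For miR-128 right the zic:HRAS ratio was -0.01 (95% interval -0.13 to 0.10), for miR-137 right 0.01 (-0.25 to 0.27) and for miR-138 left 0.03 (-0.18 to 0.25). These intervals show the changes that the fit could not tell from 0. They use the spread shared over all larval groups, not that of the 3 zic:HRAS arrays alone. For miR-137 right the SD was 0.02 in zic:HRAS and 0.39 in kita:HRAS at 3 dpf.

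**Figure D1:**
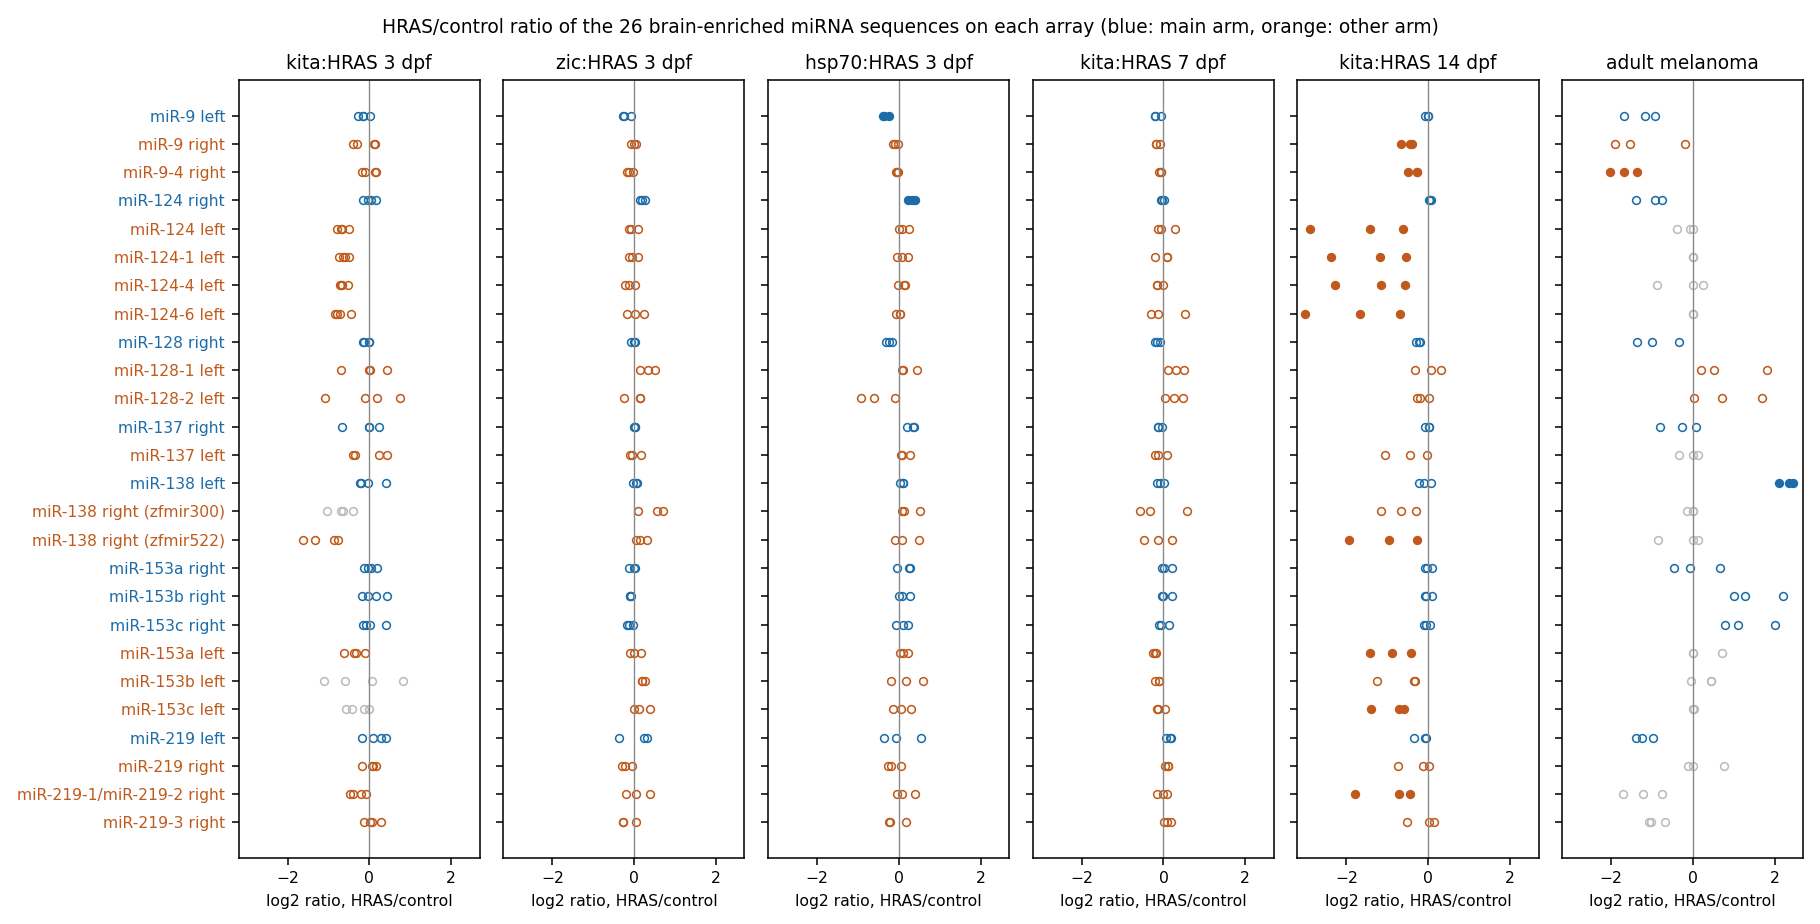
Log2 ratio of HRAS over control (x axis) of the 26 sequences (rows) in the 6 comparisons (panels), with each array as a point; filled points are called, open points tested but not called and gray points not tested. The larval means of main arms (blue) lie between -0.33 and 0.32, with miR-9 left and miR-124 right called in hsp70:HRAS. Several other arms (orange) lie below 0 at 14 dpf, and in adult melanoma miR-138 left lies between 2.11 and 2.44.

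Set against each other at 3 dpf, zic:HRAS and kita:HRAS differed in 0 of 23 brain-enriched sequences, where 0.376% of all sequences tested were called (1 of 266, limma). An unadjusted limma p below 0.05 was found in 2 of the 23 and in 50 of all 266. Among the 9 main arms the differences ran from -0.19 to 0.20, and their 95% intervals from -0.56 at the lowest to 0.47 at the highest. The median difference was 0.08 for brain-enriched sequences and 0.10 for all sequences tested. The arrays of these models never shared a slide, so that model and slide cannot be told apart.

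In 6 of the 23 sequences every zic:HRAS array was above every kita:HRAS array, and in 0 every one was below. Over all sequences tested these shares were 20.3% and 6.77%. The 6 sequences were of other arms, namely the 4 left-arm sequences of miR-124, miR-138 right (zfmir522) and miR-153a left. For miR-124 left the kita:HRAS ratios were -0.70, -0.79, -0.51 and -0.68, while the zic:HRAS ratios were 0.10, -0.07 and -0.13. Its difference of 0.64 had a 95% interval of -0.16 to 1.43 and did not pass the test (limma adjusted p = 0.327). Both use the spread shared over all larval groups. The SD of miR-124 left was 0.12 in kita:HRAS at 3 dpf, 0.12 in zic:HRAS and 1.16 in kita:HRAS at 14 dpf. The interval thus reflects the scatter at 14 dpf as well, and missing the threshold does not show that the models are alike. The lowest adjusted p among the brain-enriched sequences, 0.052 with limma, belonged to miR-138 right (zfmir522). Its kita:HRAS ratios were -0.86, -0.78, -1.62 and -1.34 and its zic:HRAS ratios 0.33, 0.06 and 0.15, a difference of 1.33 (95% interval 0.61 to 2.04).

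In kita:HRAS at 3 dpf this sequence had a mean of -1.15 (SE 0.22, n = 4, limma adjusted p = 0.0105), just outside the threshold. In the HRAS channel it was well above background on 2 of these 4 arrays, against 4 in the control channel. It was thus tested only through the control channel, so its low ratio is no independent evidence of a fall. For miR-153a left the counts were 2 and 3. Between 1 and 3 brain-enriched sequences were called in kita:HRAS at 3 dpf under 6 of the other settings. Some kita:HRAS ratios split by slide. For miR-9 right they were -0.40 and -0.31 on slide 1 and 0.14 and 0.11 on slide 2. For miR-137 left they were -0.36 and -0.40 on slide 1 and 0.25 and 0.43 on slide 2. Their means near 0 therefore averaged arrays of opposite sign.

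**Figure D2:**
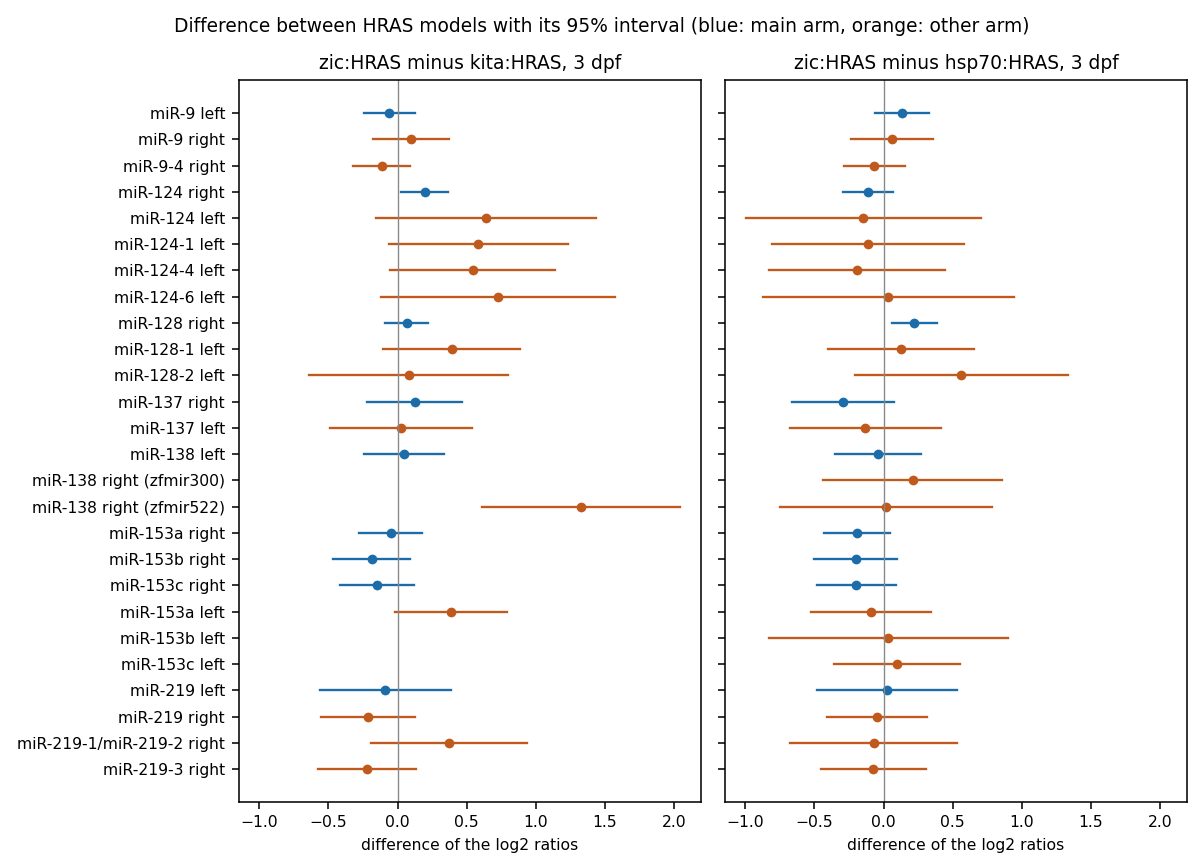
Difference of the log2 ratio (x axis) between zic:HRAS and kita:HRAS (left panel, 23 sequences tested) and between zic:HRAS and hsp70:HRAS (right panel, 26 sequences), as points with 95% intervals from limma; blue marks main arms and orange other arms. The main arms sit between -0.30 and 0.22, and 0 differences passed the test.

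With HRAS induced in the whole larva, the share of brain-enriched sequences called was near that of all sequences. In hsp70:HRAS larvae 2 of 26 were called, 1 up and 1 down, against 5.94% of all known sequences (3.75% up and 2.19% down). The log2 ratios of miR-124 right were 0.39, 0.24 and 0.32, all above 0 (mean 0.32, SE 0.06, limma adjusted p = 0.0041). Those of miR-9 left were -0.40, -0.35 and -0.25, all below 0 (mean -0.33, SE 0.06, limma adjusted p = 0.00504). In zic:HRAS, on the same slide, miR-124 right and miR-9 left had the same signs at smaller size. Both hsp70:HRAS calls were lost when any of the 3 arrays was left out, and when arrays were centered on their median ratio, slide was a random block or the group was fitted alone (0 called in each case).

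The direct comparison on slide 3 gave 0 of 26 differences between zic:HRAS and hsp70:HRAS, where 0.317% of all sequences were called (limma). An unadjusted limma p below 0.05 was found in 1 of the 26 and in 37 of all 315. For miR-124 right the difference was -0.12 (95% interval -0.30 to 0.07) and for miR-9 left 0.13 (-0.07 to 0.33). The sequence with the lowest adjusted p was miR-128 right. Its ratios were -0.16, -0.31 and -0.23 in hsp70:HRAS and -0.07, 0.00 and 0.03 in zic:HRAS, which do not overlap, with a difference of 0.22 (95% interval 0.06 to 0.39, limma adjusted p = 0.218).

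In kita:HRAS larvae at 7 dpf 0 of 26 sequences were called, against 2.75% of all (limma). An unadjusted limma p below 0.05 was found in 2 of the 26 and in 58 of all 363. The main arms had means between -0.15 and 0.13. The left arm of miR-124, which was below 0 on every kita:HRAS array at 3 dpf, had ratios of -0.07, 0.27 and -0.14 at 7 dpf.

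At 14 dpf, in kita:HRAS larvae, 10 of 26 sequences were called down and 0 up. Of all sequences tested 24.9% were called, 22.2% down (81 of 365) and 2.74% up. All 10 were among the 17 other-arm sequences, and 0 of the 9 main arms was called. The difference between arms was not tested. The median log2 ratio was -0.71 for the other arms and -0.03 for the main arms, beside -0.16 for all sequences tested.

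For miR-124 right the ratios at 14 dpf were 0.04, 0.01 and 0.07. For miR-124 left, from the opposite arm of the same hairpins, they were -1.42, -2.90 and -0.62. The arms of miR-124 thus did not overlap. The mean of miR-124 left was -1.65 (SE 0.28, limma adjusted p = 0.000995), and the other left-arm sequences of miR-124 had means between -1.78 and -1.33. These sizes depend on the background correction. With normexp and loess miR-124 left was at -0.98, miR-124-1 left at -0.88 and miR-124-6 left at -1.04, each still called. All SEs and p-values at 14 dpf use the spread shared over the larval groups, not that of the 3 arrays alone. The SD of miR-124 left was 1.16 at 14 dpf and 0.12 in kita:HRAS at 3 dpf.

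For miR-9 the left arm had ratios of -0.08, -0.01 and 0.00, and the right arm ratios of -0.45, -0.67 and -0.40 (mean -0.51, SE 0.10, limma adjusted p = 0.00146). The variant miR-9-4 right had a mean of -0.35 (SE 0.07, limma adjusted p = 0.00236).

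In the miR-153 family the 3 right-arm means lay between -0.04 and 0.00. Its left arms miR-153a left (-0.89, -1.43 and -0.42) and miR-153c left (-0.72, -1.40 and -0.60) were called, with means of -0.91 each (-0.59 and -0.51 with normexp and loess). The third, miR-153b left, had ratios of -0.34, -1.25 and -0.33 and did not pass (limma adjusted p = 0.0917).

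Of the miR-219 sequences, miR-219-1/miR-219-2 right was called (-0.72, -1.79 and -0.45; mean -0.99, SE 0.20, or -0.45 with normexp and loess), whereas miR-219 left had a mean of -0.16. For miR-138, the right-arm sequence zfmir522 was called (-0.95, -1.95 and -0.27; mean -1.06), and miR-138 left had a mean of -0.08. The zfmir522 sequence was at -0.31 and not called with normexp and loess (limma adjusted p = 0.0241). Its call was also lost with slide as a random block, with the replicate number as a block and without replicate 1, and it was not tested when both channels had to be above background. The main arm miR-128 right had ratios of -0.23, -0.30 and -0.20, all below 0, and its adjusted p was 0.00325 with limma. Its fold change stayed under the 1.2 required for a call.

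Replicate 2 had the lowest ratio in each of the 10 called sequences. Without it 6 of the 10 were called, the 4 left-arm sequences of miR-124, miR-153a left and miR-153c left. The mean of miR-124 left was then -1.02. When the 3 arrays of 14 dpf were fitted alone, 0 were called. Of the 17 other-arm sequences, 13 were in the dimmer part of the array at 14 dpf, below the median control signal of all sequences tested, and 0 of the 9 main arms were. Among all sequences tested, 30.8% of those below that median and 13.7% of those above it were called down. The part of spot brightness in the result was not tested. Of the other neural and sensory miRNAs, 13 of 22 sequences were called down, as were 7 of 14 muscle sequences (1 was called up) and 4 of 16 skin sequences. Of 4 red blood cell sequences 1 was called up and 0 down.

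The difference between 14 and 3 dpf in kita:HRAS passed the test in 0 of 23 brain-enriched sequences, where 1.48% of all sequences were called (limma). An unadjusted limma p below 0.05 was found in 9 of the 23 and in 73 of all 271. For miR-124 left the difference was -0.98 (95% interval -1.77 to -0.18, limma adjusted p = 0.118). For miR-124 right it was 0.03 (95% interval -0.14 to 0.20). Without replicate 3 of 14 dpf 5 sequences were called lower at 14 dpf.

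In adult melanoma miR-138 left was called up, and it was the one brain-enriched sequence called that was above background in both channels. Only 13 of the 26 sequences were bright enough to be tested, the 9 main arms and 4 of the other arms. Of these 2 were called, 1 up and 1 down, against 8.27% of all sequences tested (3.15% up and 5.12% down). The largest ratio among them was that of miR-138 left, at 2.11, 2.44 and 2.35 on the 3 arrays. Its signal from tumor fins was thus above that from control fins on each array, with a mean of 2.30 (SE 0.21, a 4.93-fold change, limma adjusted p = 0.00577). In larvae the same sequence had means between -0.08 and 0.08.

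The call down was miR-9-4 right, with ratios of -1.36, -1.68 and -2.04. It was not well above background in the tumor channel of any array and was tested only because the control channel was, so that its call is no independent evidence of a fall. Its fold is a bound, at least 1.21-fold lower (from loess- and Aquantile-normalized signals of each channel, without dye swaps), and with normexp and loess it was at -0.29 and not called. Both other miR-9 sequences were also below 0 on every array. The ratios of miR-9 left were -1.69, -1.18 and -0.92 (mean -1.26, SE 0.24, limma adjusted p = 0.0178), which misses the threshold.

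Other main arms were off 0 on every array without passing. For miR-124 right the ratios were -1.40, -0.76 and -0.93 (mean -1.03, limma adjusted p = 0.025), with an outlier spot left out of the third. For miR-219 left they were -1.39, -1.24 and -0.99 (mean -1.21, limma adjusted p = 0.0153). Within the miR-153 family miR-153b right was at 1.28, 1.00 and 2.22 (a 2.83-fold change, limma adjusted p = 0.019) and miR-153c right between 0.79 and 2.01 (mean 1.30, limma adjusted p = 0.0277). In contrast, miR-153a right, which shares their seed, was at -0.07, -0.46 and 0.67 (mean 0.04, 95% interval -0.69 to 0.77). The sequence of miR-153c right differs from that of miR-153a right by G17A. Differences between these sequences were not tested.

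At a limma adjusted p below 0.05, 7 of the 13 were called, 3 up and 4 down, and the share of all sequences at that threshold was not counted. An unadjusted limma p below 0.05 was found in 9 of the 13 and in 136 of all 254. Without replicate 1 of adult melanoma 0 were called, and without replicate 3 there were 5. The median ratio of the brain-enriched sequences tested was -0.33, but 0.04 over those with both channels above background on every array, -0.14 with normexp and loess and -0.54 without replicate 3. It was -0.12 for all sequences, -0.24 for other neural and sensory sequences, -1.55 for skin sequences (1 of 11 called down) and -1.09 for muscle sequences (1 of 11 called down). The part that the tissue makeup of the fins played in these ratios was not tested.

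The control channel shows how the same sequences stand in wild-type fish. Control signal is given as log2 processed red signal minus the array's 75th percentile over 189 sequences well above background on all arrays. It compares a sequence with itself only. The 3 dpf controls of kita:HRAS and zic:HRAS formed one group, and the slide was a term in the fit. With these terms each difference from 3 dpf compares arrays of one slide only. It rests on 2 control arrays of 3 dpf, on slide 1 for the older larvae and on slide 2 for adult fin. The 3 dpf controls on slide 3 add to the spread behind the SEs and p-values, but not to these differences. The slide term mattered, since miR-9 left in 3 dpf controls stood at 3.01 and 2.93 on slide 1, 1.24 and 1.45 on slide 2 and between 3.84 and 3.87 on slide 3.

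Sequences from both arms of miR-219 and of miR-9 were called lower in wild-type larvae of 7 and 14 dpf than at 3 dpf, and miR-124 right was called at neither age. These levels depend on the scaling. With the percentile over all known and predicted probes the median difference of all sequences moved from -0.29 to 0.22 at 7 dpf and from 0.08 to -0.31 at 14 dpf, and differences relative to that median stayed as they were. On slide 1 miR-219 left stood at 1.17 and 0.87 at 3 dpf, at -0.16, -0.03 and -0.23 at 7 dpf and at -0.90, -0.72 and -0.82 at 14 dpf. The ages do not overlap. In the fit the differences were -1.16 at 7 dpf and -1.84 at 14 dpf on the log2 scale (limma adjusted p = 0.000165 and 1.87e-06). They equal the differences between the slide 1 means and are not separate evidence. Without the slide term the 7 dpf difference of miR-219 left turned to 0.15. The right arm, miR-219 right, was on slide 1 at -4.08 and -3.99 at 3 dpf and between -6.37 and -5.75 at 14 dpf.

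For miR-9 left the slide 1 values were 3.01 and 2.93 at 3 dpf, 2.33, 2.38 and 2.23 at 7 dpf and 2.05, 1.82 and 1.97 at 14 dpf, again without overlap. The differences were -0.66 at 7 dpf and -1.02 at 14 dpf (limma adjusted p = 0.00356 and 0.000115). The 7 dpf call of miR-9 left was lost with the percentile over all known and predicted probes (-0.15). On slide 1 miR-124 right was at 2.32 and 2.31, then 2.51, 2.66 and 2.40, then 2.37, 2.30 and 2.29. Its 7 dpf arrays thus also lay apart from its 3 dpf arrays, all above them, though it was not called. With 2 arrays at 3 dpf such separation was common among the brain-enriched sequences on slide 1, as counted below. The difference of miR-124 right at 14 dpf was 0.01 (95% interval -0.26 to 0.27). For miR-138 left it was 0.01 as well (95% interval -0.25 to 0.28).

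**Figure D3:**
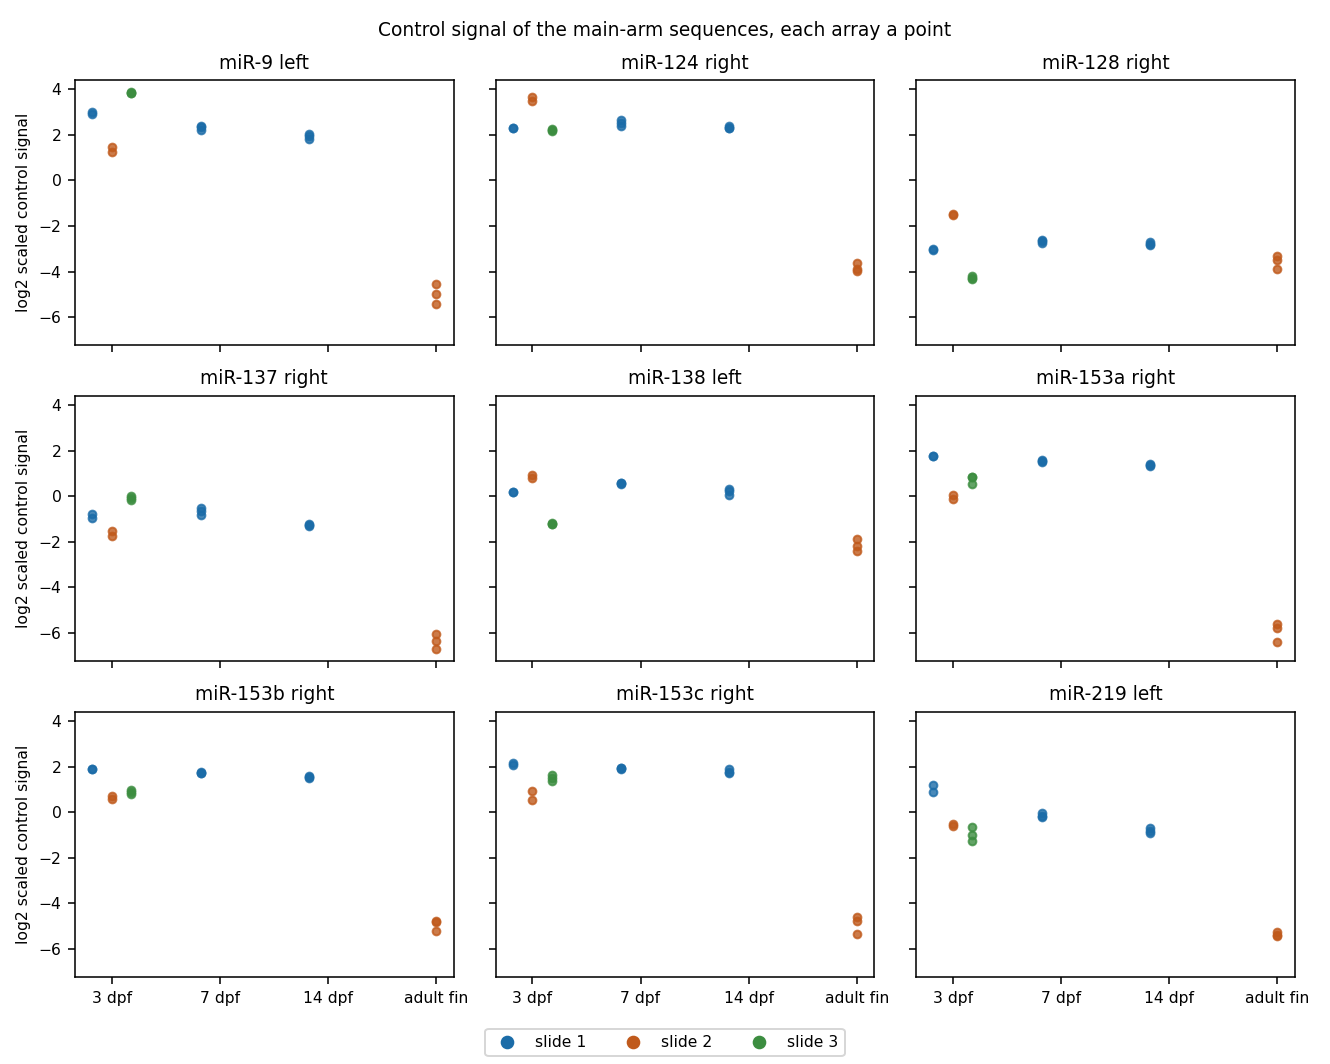
Scaled log2 control signal (y axis) of the 9 main-arm sequences (panels) in wild-type controls by age and in adult fin (x axis), each array a point colored by slide. At one age the slides differ by up to several log2 units, while adult fin lies below the 3 dpf arrays of its own slide, slide 2, for each sequence.

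In all, 14 of 26 sequences were called lower at 7 dpf and 0 higher. Of all sequences 55.6% were called, 36.1% lower and 19.6% higher. At 14 dpf 9 were called lower and 1 higher, where 46.6% of all were called, 20.3% lower and 26.3% higher. The one called higher was miR-128-2 left, on slide 1 at -5.66 and -5.62 at 3 dpf and between -4.73 and -4.46 at 14 dpf (difference 1.09, limma adjusted p = 0.000126). On slides 2 and 3 its 3 dpf controls stood between -4.25 and -3.88, above every 14 dpf array. Under the alternatives its difference fell as low as 0.03, and its call was lost in 4 of 23. The calls at 7 dpf held 2 main arms of 9 and 12 other arms of 17. On slide 1 every 7 dpf array was below both 3 dpf arrays in 21 of 26 sequences and above both in 4. For 14 dpf these counts were 20 and 2. How many of all known sequences were separated in this way was not counted, so this shows nothing particular to the brain-enriched ones. The median difference was -0.93 at 7 dpf and -0.77 at 14 dpf, beside -0.29 and 0.08 over all sequences tested. With normexp, loess and Aquantile it was -0.30 at 7 dpf and -0.40 at 14 dpf, and with quantile normalization -0.44 and -0.81. Quantile normalization called 10 lower and 4 higher at 7 dpf.

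Some of these differences were large. For miR-124 left the slide 1 values went from -2.97 and -3.00 at 3 dpf to -5.72, -5.89 and -5.79 at 7 dpf, and stood at -4.59, -3.44 and -4.07 at 14 dpf. The 14 dpf controls are the same samples as those behind the ratios above, and replicate 2, with the lowest ratio of miR-124 left, had its highest control value. For miR-137 left the values went from -4.69 and -4.63 to between -7.28 and -7.04 at 7 dpf and between -6.97 and -6.38 at 14 dpf.

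Brightness again moved with these calls, since 14 of the 17 other arms and 0 of the 9 main arms were below the median control signal at 7 dpf. Among all sequences tested 48.1% of those below it and 24.2% of those above it were called lower at 7 dpf. The part of brightness was not tested. With the percentile taken over all known and predicted probes, 6 were called lower at 7 dpf. At 14 dpf 5 were called without the slide term.

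In wild-type adult fin 15 of the 26 sequences were well above background on 1 or more arrays, the 9 main arms and 6 other arms. Each of the 15 was called lower than in 3 dpf larvae. Of these, miR-124-4 left and miR-219-3 right were above background on 1 of the 3 fin arrays only. They too were tested only through the larvae, so their calls are no independent evidence. The 9 main arms were above background on all 3 fin arrays, and all 9 were called lower. Over all sequences tested 83.2% were called, 62.4% lower and 20.9% higher. Among the 267 sequences above background on 1 or more fin arrays 139 were called lower (52.1%) and 71 higher. How many of the 267 were tested only through the larvae was not counted. Their median difference was -1.02, beside -5.57 for the 15 brain-enriched sequences and -5.57 for the 9 main arms alone. The adult fin controls are also the denominators of the melanoma ratios. On slide 2 the signal of miR-124 right was 3.48 and 3.66 in 3 dpf controls and -3.98, -3.60 and -3.90 in adult fin. The log2 difference of -7.39 (SE 0.12, 168-fold) was the largest among the main arms. For miR-9 left it was -6.32, for miR-219 left -4.80, for miR-137 right -4.72 and for the miR-153 right arms between -5.91 and -5.57. These sizes depend on the correction. Over all 26 brain-enriched sequences the median relative to that of all sequences tested was -3.48 as given here. With normexp and no dye normalization it was -0.78. Both medians include sequences that were not above background in fin.

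Smaller differences were seen for miR-138 left and miR-128 right. For miR-138 left the signal was 0.95 and 0.80 at 3 dpf and -2.38, -2.20 and -1.86 in fin on slide 2, a difference of -3.02 (8.13-fold). For miR-128 right it was -1.51 and -1.48 at 3 dpf and -3.49, -3.30 and -3.87 in fin. Its difference of -2.06 was close to the median of all sequences. The fin values of miR-128 right lay between those of 3 dpf controls on the other slides, which were -3.02 and -3.06 on slide 1 and from -4.32 to -4.19 on slide 3. With the percentile over all known and predicted probes its difference turned to 0.08, while the median of all sequences moved to 0.44.

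The other 11 sequences, all of other arms, were not well above background on any fin array. They were tested only through the larvae, as were all 73 such sequences on the array, each of which was called lower, so that their calls are not counted here. Against all 3 dpf controls their folds are bounds, from at least 1.17-fold for miR-138 right (zfmir300) to at least 4.45-fold for miR-124-1 left. Against the 3 dpf controls of slide 2, the slide that holds the fin arrays, 8 had a bound, from at least 1.25-fold to at least 6.76-fold. On that slide miR-138 right (zfmir300), miR-153b left and miR-153c left were below background in both groups and have no fold. Of the other neural and sensory miRNAs, 21 of 21 sequences tested were called lower, with a median of -3.93, including any that were below background in fin. Skin sequences had 6 called higher and 4 lower of 12, and muscle sequences 4 and 4 of 14.

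**Figure D4:**
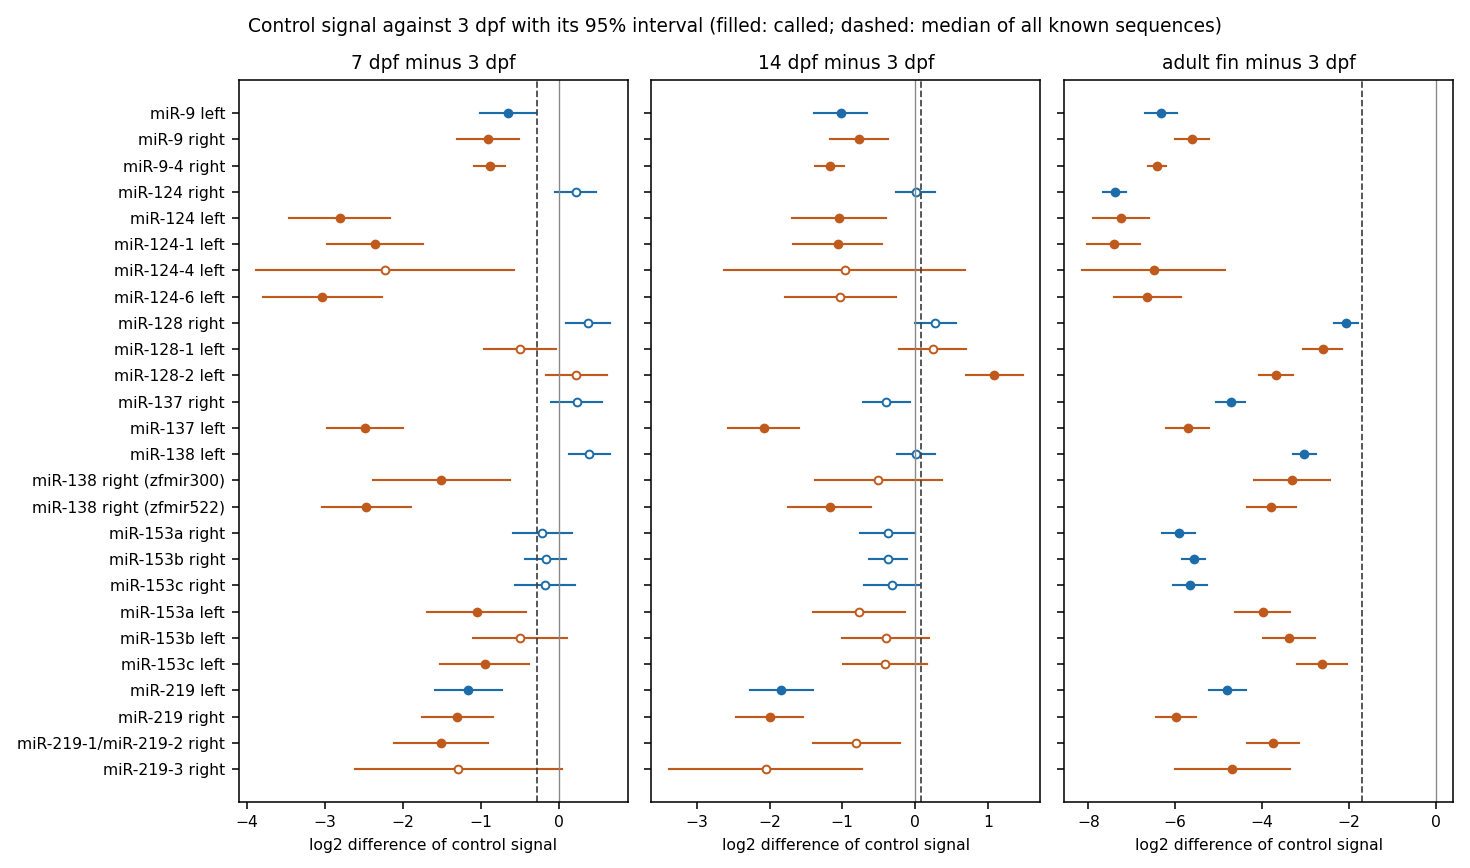
Difference of log2 control signal (x axis) of the 26 sequences (rows; blue main arms, orange other arms) at 7 dpf, at 14 dpf and in adult fin against 3 dpf, with 95% intervals from limma; filled points are called and the dashed line is the median of all sequences tested. In adult fin all 26 lie left of the dashed line, with miR-128 right nearest to it, and 11 other arms are not above background there.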

How the data were processed

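The authors labeled total RNA with Hy3 and Hy5 and deposited Agilent Feature Extraction output for each array (version 10.7.3.1 in the file headers, 9.5.3.1 in the submitters' processing notes). Intensities deposited by the authors are linear scanner units after background subtraction and dye normalization, and the deposited log10 ratio is red over green. It is 0 at many dim spots. Its sign was changed and it was put on the log2 scale. Arrays had no dye swap, so a dye bias of a probe remains in its ratio. Flagged outlier spots were left out, spots of identical probe sequence averaged, and a sequence tested where, on most arrays of the group, a share of 0.5 or more of its spots was well above background in the green or red channel.

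Tests were limma 3.58.1 in R 4.3.3, two-sided, fitted to the 16 larval arrays as 5 group means and separately to the 3 adult arrays. Control signals were fitted over all 19 arrays with slide as a block, so that each difference from 3 dpf compared arrays of one slide. For kita:HRAS at 14 and 3 dpf the arrays of equal replicate number deviated together (correlations 0.207 to 0.245 over sequences, 3 pairs). The labels give no shared animals, and with a block on that number 0 brain-enriched sequences were called between these ages, as without it. Adult arrays alone leave no residual degrees of freedom for a block. Labels name replicate pools from different parents. Named sequences are the main arms of each family and each other sequence called in a comparison. The members and marker lists were chosen with earlier results of these data known. The main ratio and control-signal fits were tested on simulated data with independent noise, and the alternatives were not. The simulated noise of a sequence had the same spread in every group, so unequal spreads, such as those of miR-124 left, were not checked. Alternatives covered background correction, centering, scaling, filters, thresholds, slide, replicate block, prior variance and leaving out each array. Figures were drawn with matplotlib 3.10.9.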

Additional observations from a re-analysis of the deposited data

How the results depend on the processing

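The number of calls was 0 under every alternative run in zic:HRAS, in kita:HRAS at 7 dpf and in zic:HRAS against hsp70:HRAS. In zic:HRAS the unadjusted limma p was 0.0048 for miR-124 right and 0.0088 for miR-9 left. At the unadjusted threshold of 0.01 only their fold, 1.15 for each, under the 1.2 required, kept them from a call. In adult fin it was between 21 and 26. The fin count includes the 11 sequences above background on no fin array, which were tested only through the larvae. Its stability is therefore no support. In kita:HRAS at 3 dpf the 0 calls became 1 with centered arrays, with the ratio of processed signals, with each probe by itself and with the replicate block, 2 at an adjusted p below 0.05 and 3 at an unadjusted p below 0.01. In hsp70:HRAS the 2 calls became 1 with normexp and loess, with a trended prior and with the replicate block, and 0 with centering, with slide as a random block, with the comparison fitted alone and without any 1 array (0 to 0). At 14 dpf the 10 calls became 0 when fitted alone and ran from 6 (without replicate 2) to 11 (without replicate 3). In adult melanoma the 2 calls became 1 with normexp and loess, with both channels above background and with a trended prior, 0 with no filter, 6 with centering, 7 at an adjusted p below 0.05 and 7 at an unadjusted p below 0.01, and ran from 0 to 5 without 1 array. At an unadjusted p below 0.01 there was 1 call between zic:HRAS and kita:HRAS and 2 between 14 and 3 dpf, where leaving out 1 array gave 0 to 5. In controls the 14 calls at 7 dpf became 6 with the percentile over all known and predicted probes and ran from 10 to 14 without 1 array. The 10 at 14 dpf became 5 without the slide term, 4 with normexp and no dye normalization and 16 at an adjusted p below 0.05, and ran from 6 to 12 without 1 array. The cause was not tested. Shares over all sequences under these alternatives are not given, apart from the fits with a replicate block.

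Directions reversed in 5 of 1365 values of single sequences, and 131 calls were lost. The 1365 include alternatives that could not change a value, such as other p thresholds, so the share of reversals is understated. At 7 dpf without the slide term the reversals were miR-153a left (0.30), miR-153c left (0.22) and miR-219 left (0.15). In adult fin they were miR-128 right with the percentile over all probes (0.0806) and miR-153c left with normexp, loess and Aquantile (0.0496). With the replicate block, the calls over all known sequences in kita:HRAS at 3 dpf rose from 3 to 22, in hsp70:HRAS they went from 19 to 10, and 9 of the 10 calls at 14 dpf were shared with the fit without it. The count of brain-enriched calls changed in no comparison beyond those named above. Of the 5 pairs of groups checked, only kita:HRAS at 14 and 3 dpf had ratio correlations above 0.1 between arrays of equal replicate number. A pairing of the samples behind them was not tested. In the fit to all larval arrays 5 of 271 sequences were called between these ages with the block, against 4 without it. With the block and the arrays of these groups alone, including replicate 4 of 3 dpf that has no partner, 0 of 271 were called. That fit, and the scaling of control differences to the median of all sequences, were chosen after seeing the data.

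The adult melanoma ratios rest on few bright spots, since 12 of 26 sequences were well above background on no array in the tumor channel and 11 in the control channel. Dye bias could not be separated from the ratios, and slide and model cannot be told apart for zic:HRAS against kita:HRAS.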
